A study of Bos taurus with 36 samples.

Results

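Liver biopsies taken 48 h after infusion of lipopolysaccharide (LPS) into the udder were compared with biopsies taken from the same cows 22 h before it, to find which transcripts had not come back to their level before treatment and which had passed beyond it. The comparison was formed by the hour given for each array, 8 arrays at 48 h against 8 arrays at -22 h, and uses 16 of the 36 arrays of the series. Each of 8 cows has 1 array at either time point, so the arrays were paired by cow. The same 8 Holstein-Friesian cows, free of disease and with a high milk yield, make up both groups, and they had calved for the first time 9 to 12 weeks earlier. Every cow received 200 µg of Escherichia coli LPS (O111:B4) in 10 ml of saline into the right front gland of the udder and saline alone into the left front gland, so the 48 h group carries both treatments and the -22 h group carries neither. Liver was sampled in all cows at -22, 9 and 48 h, and additional biopsies at 3, 6 and 12 h came from cows 1, 3, 7 and 8. No untreated cow is among the arrays, and time after infusion, time in the study and the biopsies already taken cannot be told apart on them. The paper reports a separate control study of saline-infused cows, without arrays, in which biopsies altered neither clinical measures nor some selected genes.

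During the acute phase response, cytokines from inflamed tissue reach the liver and hepatocytes switch their output towards proteins that bind microbes, scavenge metals and heme, and limit proteases. Many genes of hepatic metabolism are lowered at the same time, among them genes of lipid synthesis, bile acid formation and drug oxidation. Most of these changes are transient, and the time at which each group of genes comes back differs with the stability of its mRNA and with how long the signals last.

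Transcript levels came from Affymetrix Bovine Genome Arrays, with 1 log2 value for each probe set on each array. Values ran between 0.69 and 16.31. The array medians lay between 4.22 and 4.32 at 48 h and between 4.15 and 4.37 at -22 h. The -22 h array of cow 7 stood apart from the other 15 arrays. Its hybridization spike-in probe sets averaged 13.39, against 10.96 to 11.66 on the other arrays, and 10621 of its probe sets reached a log2 value of 5, against 10809 to 11202 elsewhere. A pair of other arrays also deviated. Along the line that joins the mean of the -22 h arrays to the mean of the 9 h arrays, the 48 h array of cow 2 lay at 24.0% of the distance, whereas the other 48 h arrays lay between -0.1% and 3.6%. On the same line the -22 h array of cow 1 lay at 10.6%, and the other -22 h arrays between -4.3% and 2.7%.

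Of all 24128 probe sets on the array, 3856 (16%) differed between 48 h and -22 h at a Benjamini-Hochberg-adjusted p below 0.05 in a limma fit with a term for the cow. A total of 1387 were higher at 48 h (5.75%) and 2469 were lower (10.2%). Genes were read through 1 probe set each, which gave 9155 genes, and 1890 of them (20.6%) were changed, with 629 higher (6.87%) and 1261 lower (13.8%). The changes were unequal in size. At least 2-fold differences were found for 117 higher genes (1.28%) and 79 lower genes (0.863%), and at least 4-fold differences for 22 higher genes (0.24%) and 2 lower genes (0.0218%). A Bonferroni-adjusted p below 0.01 was reached by 11 higher (0.12%) and 5 lower genes (0.0546%). The direction was shared by all 8 cows for 473 of the higher and 850 of the lower genes (5.17% and 9.28% of the genes tested). In biopsies of whole tissue, fewer cells of a type and less RNA per cell cannot be told apart.

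The balance of higher and lower calls depended on the centring of the arrays. The brighter probe sets, 11141 whose mean over the 36 arrays reached 5 on the log2 scale, had a median change of -0.09 at 48 h. In 7 of 8 cows this median was negative, between -0.193 in cow 1 and -0.059 in cow 8, whereas it was 0.112 in cow 7. Subtracting from every array the median of these brighter probe sets is called median centring here, and by it every change moved up by 0.13 on average on the log2 scale. After median centring 5050 probe sets were changed (20.9%), 3360 higher (13.9%) and 1690 lower (7%). All 1387 probe sets that had been higher stayed higher. Of those that had been lower, 1676 stayed lower and 793 were no longer called, while 1973 were newly higher and 14 newly lower. No probe set turned to the other side. The share of higher probe sets among those called was 36.0% before and 66.5% after median centring, and for genes it was 33.3% before and 64.2% after. Of the genes 2181 (23.8%) were changed after median centring, 1400 higher (15.3%) and 781 lower (8.53%).

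**Figure D1:**
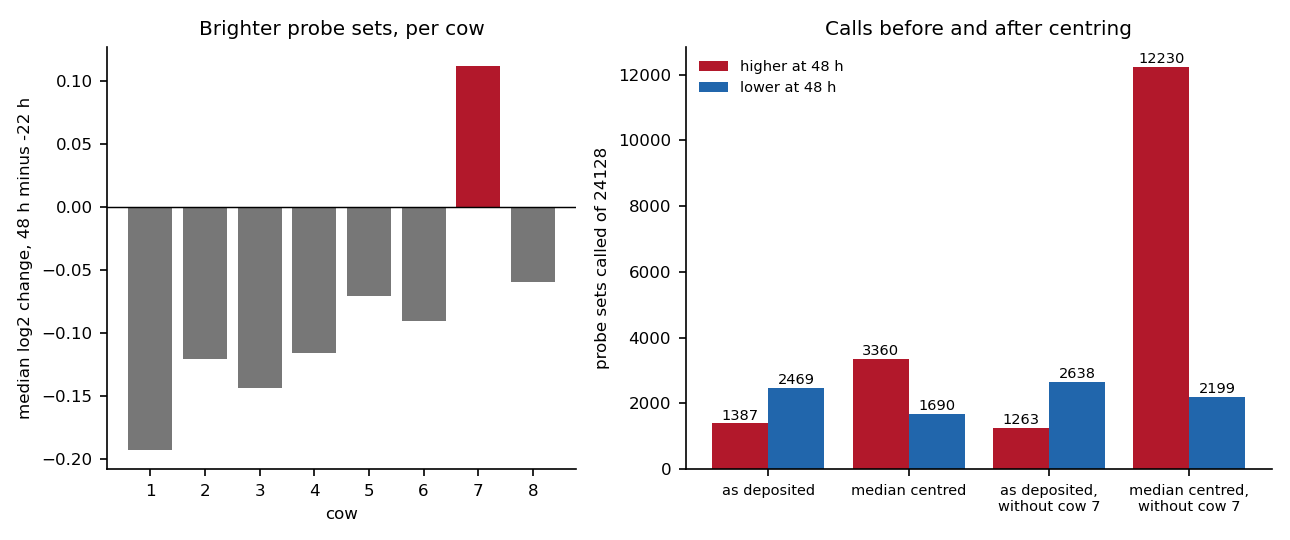
The left panel plots the median log2 change (48 h minus -22 h) of the brighter probe sets in each cow, and the right panel the number of probe sets called higher (red) and lower (blue) at 48 h, before and after median centring, with all cows and without cow 7. Cow 7 is the only cow with a median above 0, at 0.112, and without it median centring gives 12230 higher calls, against 3360 with all cows.

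The counts after centring depended on cow 7. Without cow 7 the uncentred fit called 3901 probe sets (16.2%), 1263 higher (5.23%) and 2638 lower (10.9%), and 1871 genes (20.4%). With median centring and without cow 7 it called 14429, of which 12230 were higher and 2199 lower. Leaving out any other cow after median centring gave 3288 to 4427. Centring on the median of all probe sets, most of which are dim, gave 4132 calls with 1718 higher and 2414 lower. All 252 higher and all 232 lower probe sets with a called change of at least 2-fold before median centring were still called after it. This refers to the adjusted p, and the limit of 2-fold was not applied again to the centred changes.

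The shift was not the same at all levels. Probe sets with a mean log2 value below 3 on the 16 arrays had a median change of 0.04, those between 7 and 8 had -0.15, and the brightest, between 12 and 17, had 0.01. Subtracting 1 value per array therefore moves the brightest and the dimmest probe sets upwards from a median that was already close to 0.

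**Figure D2:**
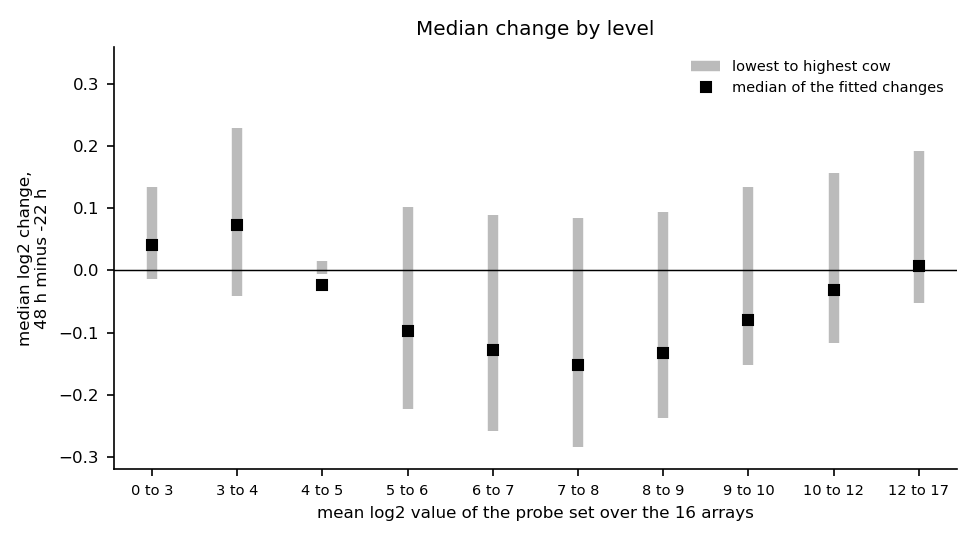
Median log2 change (48 h minus -22 h) of probe sets grouped by their mean log2 value over the 16 arrays, as the median of the fitted changes (black squares) with the lowest and highest of the 8 cows' own medians (grey bars). The squares lie near 0 for the dimmest and the brightest probe sets and reach -0.15 for those between 7 and 8.

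The arrays at 9 h served to sort the genes changed at 48 h. At 9 h, 11891 probe sets (49.3%) differed from -22 h, and 5631 of the 9155 genes (61.5%), with 3047 higher (33.3%) and 2584 lower (28.2%). Between 48 h and 9 h, 10977 probe sets (45.5%) and 5460 genes (59.6%) differed. These comparisons share the -22 h arrays, so the groups below are a description of both sets of calls. A total of 843 genes were on the same side of -22 h at 48 h as at 9 h and are called not returned. Of these 252 were higher (2.75%) and 591 lower (6.46%). In the opposite direction, 664 genes were called overshot, 237 of them higher at 48 h after being lower at 9 h (2.59%) and 427 lower at 48 h after being higher at 9 h (4.66%). The remaining 383 genes were changed at 48 h only, 140 higher (1.53%) and 243 lower (2.65%). Genes that had not returned retained a smaller change than at 9 h. The higher ones had a median log2 change of 0.58 at 48 h and 1.08 at 9 h, and the lower ones of -0.52 at 48 h and -1.06 at 9 h. Median centring kept the call of all 252, 237 and 140 higher genes, and of 375 of the 591 lower genes that had not returned, 259 of the 427 that had overshot and 143 of the 243 lower at 48 h only.

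Most genes with large changes at 9 h were not called at 48 h. Of 1440 genes at least 2-fold higher at 9 h, 1107 were not called at 48 h, 133 were still higher and 200 were lower than at -22 h. Of 1415 genes at least 2-fold lower at 9 h, 961 were not called, 317 were still lower and 137 were higher. A missing call does not show a return. For some genes, called or not, the 95% confidence interval of the 48 h change lay wholly within 0.5 log2 units of -22 h. These were 553 of the 1440 genes (38.4%) and 538 of the 1415 genes (38.0%), and for them a larger remaining change was outside the interval. They include 519 of the 1107 and 482 of the 961 genes that were not called. PCK1, the rate-limiting enzyme of gluconeogenesis, is an example. Its log2 change was -3.74 at 9 h, and at 48 h its values lay between 14.35 and 14.80 (median 14.67), against 14.39 to 14.82 (median 14.64) at -22 h. The groups overlapped fully, with a change of -0.01 (SE 0.06, adjusted p = 0.872).

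**Figure D3:**
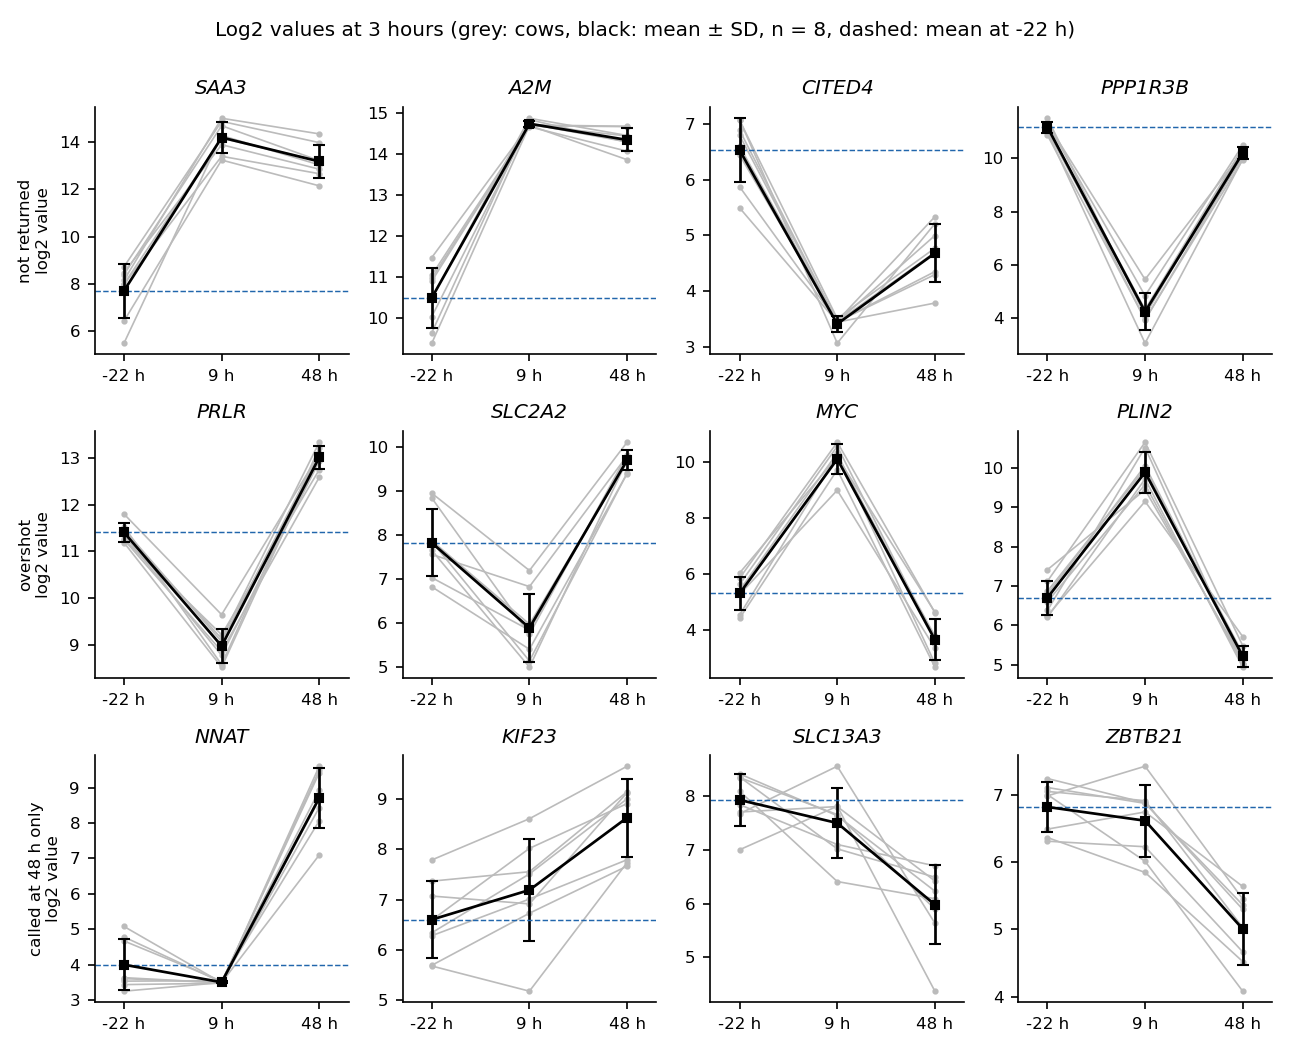
Log2 values of 12 genes at -22, 9 and 48 h in each of 8 cows (grey) with the mean and SD (black) and the mean at -22 h (dashed line), for genes that had not returned (upper row), had overshot (middle row) or were called at 48 h only (lower row). In every panel the black mean at 48 h lies away from the dashed line, on the side of the 9 h mean in the upper row and on the opposite side in the middle row.

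Several acute phase proteins were far above their level at -22 h. Of 19 measured positive acute phase proteins, 11 were higher and 1 was lower at 48 h, against 6.87% and 13.8% of all genes. After median centring the counts were 14 and 1, against 15.3% higher and 8.53% lower of all genes. The list had a median log2 change of 0.34, against 0.004 for all genes, and 10 of the 11 higher members had not returned. SAA3, an acute phase apolipoprotein of HDL, had log2 values of 12.15 to 14.34 (median 13.12) at 48 h, against 5.50 to 8.73 (median 8.08) at -22 h. The groups did not overlap, which held for 426 of all genes (4.65%). The change of SAA3 was 5.47 (SE 0.33, adjusted p = 0.000189), a 44.2-fold difference, and it was 6.48 at 9 h. A2M, a plasma inhibitor of proteases, reached 13.86 to 14.68 (median 14.37) at 48 h, against 9.39 to 11.48 (median 10.69) at -22 h, again without overlap. Its change of 3.85 (SE 0.19, adjusted p = 0.00012) was close to that at 9 h, 4.25.

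The level of HP before treatment differed widely among the cows. HP encodes haptoglobin, which binds free hemoglobin. It lay in a narrow range near the upper end of the scale, 15.68 to 15.91 (median 15.82), at 48 h, against 7.33 to 15.14 (median 12.24) at -22 h. All 48 h values were above all -22 h values, with changes of 0.66 in cow 5 to 8.46 in cow 6. The mean change was 4.01 (SE 1.05, adjusted p = 0.0354), and its call was lost without cow 3, 4, 6, 7 or 8 (adjusted p up to 0.084). LBP, which hands LPS to its receptor complex, had values of 12.88 to 14.55 (median 13.27) at 48 h, against 9.36 to 13.86 (median 11.11) at -22 h. The groups overlapped, and LBP was higher in all 8 cows with a change of 2.16 (SE 0.42, adjusted p = 0.0119). FGB, the beta chain of fibrinogen, changed by 1.37 (SE 0.23, adjusted p = 0.0065), and HPX, which binds heme, by 0.59 (SE 0.08, adjusted p = 0.00274). ITIH4 (2.04) and SAA4 (1.54), named after their values were seen, were the other members of this list above 1, and SAA4 was not called without cow 2, 3, 4, 6, 7 or 8. ORM1, alpha-1-acid glycoprotein, was already at 14.85 to 15.95 at -22 h and at 15.40 to 16.02 at 48 h, near the upper end of the scale, and its change of 0.18 (SE 0.07) was called only after median centring. Leaving out cow 8 reduced the number of higher members of the list to 7.

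**Figure D4:**
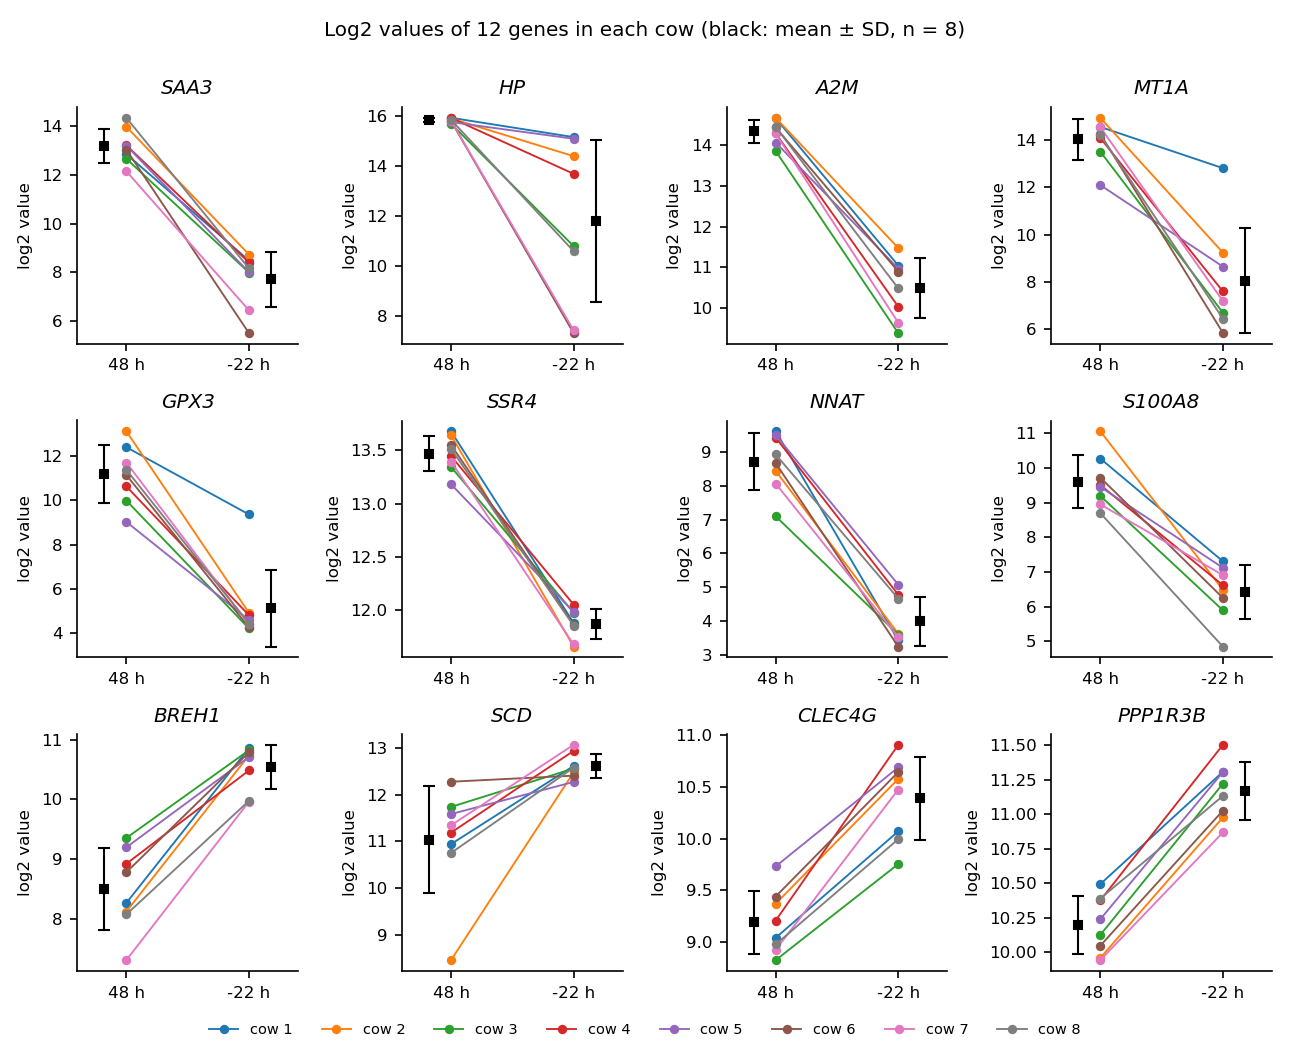
Log2 values of 12 genes in each of 8 cows (coloured lines) at 48 h (left) and -22 h (right) with the mean and SD (black). For SAA3, A2M, SSR4, NNAT, S100A8, BREH1, CLEC4G and PPP1R3B every cow moves in the same direction, whereas HP and MT1A spread widely at -22 h and cow 2 is far below the other cows in SCD at 48 h.

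The single genes with the largest rises were GPX3 and MT1A. GPX3, the glutathione peroxidase of plasma, had log2 values of 9.03 to 13.12 (median 11.26) at 48 h, against 4.21 to 9.36 (median 4.51) at -22 h. A single value made the groups overlap, that of cow 1 at -22 h (9.36), while the other -22 h values were at most 4.92. The change was 6.05 (SE 0.55, adjusted p = 0.000684), and 5.71 at 9 h. Metallothioneins bind zinc and copper. MT1A had 12.10 to 14.94 (median 14.23) at 48 h, against 5.84 to 12.81 (median 7.39) at -22 h, with a change of 5.97 (SE 0.74, adjusted p = 0.00227). MT2A changed by 2.81 (SE 0.45, adjusted p = 0.00578), and outside the list LOC613358, which RefSeq lists with the synonym MT1E, by 5.42 (SE 0.60, adjusted p = 0.00146). SLC30A1, the zinc exporter of the plasma membrane, had 6.61 to 7.55 (median 7.24) at 48 h, against 4.77 to 6.85 (median 5.57) at -22 h, and a change of 1.57 (SE 0.23, adjusted p = 0.00382) that exceeded that at 9 h, 0.88. Among 10 metallothioneins and zinc transporters 3 were higher and 0 lower, and among 28 antioxidant enzymes 7 were higher and 4 lower (2 lower without cow 1 or cow 6). Of all genes 6.87% were higher and 13.8% lower. The median changes of both lists were 0.05, so most members did not share the size of these rises. PRDX4, a peroxiredoxin of the endoplasmic reticulum, changed by 1.55 (SE 0.25, adjusted p = 0.00602), without overlap of the groups.

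Many genes of protein folding and export were higher. Of 58 measured genes of folding in the endoplasmic reticulum and of entry into the secretory pathway, 24 were higher and 0 lower (41.4%). Of all genes 20.6% were called in either direction and 6.87% were higher. The higher share was 10.6% among genes whose probe sets passed a filter on dim signal (log2 of at least 5 on at least 8 arrays). After median centring 41 of the 58 were higher and 0 lower, against 15.3% and 8.53% of all genes. The median change was 0.55, and 22 of the 24 had not returned. SSR4, a subunit of the translocon-associated complex, had values of 13.18 to 13.68 (median 13.48) at 48 h, against 11.66 to 12.05 (median 11.87) at -22 h. The groups were narrow and lay far apart, with a change of 1.60 (SE 0.09, adjusted p = 0.000147), against 0.93 at 9 h. CALR, a lectin chaperone, had 13.36 to 14.27 (median 13.74) at 48 h, against 11.11 to 13.26 (median 12.40) at -22 h, with a change of 1.42 (SE 0.28, adjusted p = 0.0129). STT3B, the catalytic subunit of an oligosaccharyltransferase, changed by 1.42 (SE 0.18, adjusted p = 0.00227) on the probe set used here and by 0.26 on another, which was not called. KDELR3, which returns proteins to the endoplasmic reticulum, was not called at 9 h and changed by 1.39 (SE 0.27, adjusted p = 0.011). PDIA3, a disulfide isomerase, changed by 0.90 (SE 0.14, adjusted p = 0.00522). Without single cows 16 to 27 members were higher. Of 29 heat shock proteins and chaperonins outside this list only 1 was called, CRYAB, a small heat shock protein, with a change of 1.93 (SE 0.28, adjusted p = 0.004). Without cow 2, 3 were higher and 5 lower. At 9 h, 25 of the 29 were higher, against 33.3% of all genes.

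Complement and coagulation genes went both ways, where 6.87% of all genes were higher and 13.8% lower. Of 33 complement components and regulators 9 were higher and 3 lower. After median centring 18 were higher and 2 lower, against 15.3% and 8.53% of all genes. At 9 h, 4 were higher and 21 lower, against 33.3% and 28.2% of all genes. C7, part of the membrane attack complex, was called at 48 h only and had 6.97 to 8.82 (median 8.01) at 48 h, against 5.41 to 7.56 (median 6.73) at -22 h. The change was 1.24 (SE 0.15, adjusted p = 0.00211). MASP2, a protease of the lectin pathway, had 11.01 to 11.36 (median 11.16) at 48 h, against 10.31 to 10.82 (median 10.54) at -22 h, without overlap, and its change was 0.63 (SE 0.06, adjusted p = 0.00103) after -0.60 at 9 h. The mannose-binding lectins moved likewise, MBL1 by 0.69 (SE 0.16, adjusted p = 0.0212, not called without cow 1, 6 or 8) after -1.37 at 9 h, and MBL2 by 0.50 (SE 0.10, adjusted p = 0.0149) after -2.43 at 9 h. Other genes of that pathway, named after their values were seen, did otherwise. MASP1 (0.45) and FCN1 (0.63) were not called, and COLEC11 was lower (-0.58). CFD, the protease of the alternative pathway that cleaves factor B, fell by 0.64 (SE 0.13, adjusted p = 0.0124). Of 22 genes of coagulation and fibrinolysis 4 were higher and 3 lower, the lower ones near the 13.8% of all genes. Factor V, encoded by F5, and the plasmin inhibitor SERPINF2 had changes of 0.75 and 0.87, and the thrombin inhibitor SERPIND1 and the plasminogen activator PLAU of -0.74 and -0.93. For F5, SERPINF2 and SERPIND1 the groups did not overlap.

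Calgranulins remained high. S100A8, S100A9 and S100A12 encode calcium-binding proteins that are abundant in neutrophils. S100A8 had values of 8.70 to 11.05 (median 9.48) at 48 h, against 4.85 to 7.31 (median 6.55) at -22 h. S100A12 had 7.90 to 10.53 (median 9.31) at 48 h, against 4.86 to 6.68 (median 6.40) at -22 h. Neither gene had overlapping groups, and the changes were 3.17 (SE 0.27, adjusted p = 0.0005) and 3.12 (SE 0.18, adjusted p = 0.00017), about 3 log2 units below those at 9 h, which were 6.19 and 5.88. S100A9 changed by 2.32 (SE 0.31, adjusted p = 0.00289), and by 3.70 on its other probe set. Of 13 measured neutrophil markers 4 were higher at 48 h and 0 lower, against 6.87% and 13.8% of all genes. The fourth was CXCR1, the receptor of interleukin-8, at 2.34 to 2.58 at 48 h, against 2.11 to 2.49 at -22 h. Its values lay near the lower end of the scale, with a change of 0.23. The mean of the 13 markers ran between 4.02 and 4.76 at 48 h and between 3.55 and 3.84 at -22 h, and 8 of the markers stayed below 5 on all 16 arrays. The part of neutrophils in these values was not tested. Other genes that had not returned, outside the neutrophil markers, were CTSC, a lysosomal protease that activates granule proteases, with a change of 2.50 (SE 0.21, adjusted p = 0.000475), SPP1, osteopontin, with 2.46 (SE 0.37, adjusted p = 0.00465), and ST6GAL1, a sialyltransferase of the Golgi, with 2.51 (SE 0.50, adjusted p = 0.0129). CTSC had the largest rise of 36 cathepsin and lysosome genes, of which 3 were higher and 9 lower (9 and 4 after median centring). SPP1 had the largest rise of 9 cholangiocyte markers, of which 1 was higher and 1 lower. The probe set of ST6GAL1 was the brightest of 7, and the other 6 were dim and not called. LOC515676, which carries no other name in the tables used here, changed by 5.01 (SE 0.53, adjusted p = 0.00133).

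Some genes of glucose handling overshot upwards. Of 21 genes of gluconeogenesis and glycogen 8 were higher and 2 lower (9 and 2 after median centring), and 7 of the 8 had been lower than at -22 h at 9 h. The other 11 were not called, the median change of the list was 0.02, and 6.87% of all genes were higher. SLC2A2, the glucose transporter of the hepatocyte membrane, had values of 9.39 to 10.10 (median 9.70) at 48 h, against 6.83 to 8.95 (median 7.75) at -22 h. The groups did not overlap, and the change was 1.87 (SE 0.20, adjusted p = 0.00142), after -1.93 at 9 h. SLC37A4, which carries glucose-6-phosphate into the endoplasmic reticulum, changed by 0.83 (SE 0.13, adjusted p = 0.00516) on its brightest probe set and by -0.63 (adjusted p = 0.021) on another, so its direction is not settled. The catalytic partner of this transporter, G6PC1, had 10.85 to 12.74 (median 12.39) at 48 h, against 12.75 to 13.02 (median 12.90) at -22 h. Although every 48 h value lay below every -22 h value, the change of -0.68 (SE 0.20) missed the threshold (adjusted p = 0.0541), and a second probe set gave 0.72 (adjusted p = 0.074). The lower members were PPP1R3B and PPP1R3C, which direct protein phosphatase 1 to glycogen, and both had not returned. PPP1R3B had 9.94 to 10.49 (median 10.18) at 48 h, against 10.87 to 11.50 (median 11.18) at -22 h, without overlap. Its change was -0.97 (SE 0.05, adjusted p = 0.00012) and had been -6.93 at 9 h. PPP1R3C changed by -0.83 (SE 0.07, adjusted p = 0.000532), after -2.87 at 9 h.

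Of 27 genes of the growth hormone and glucocorticoid axes 7 were higher, 3 were lower and 17 were not called. Without cow 4 or cow 6 only 4 were higher. Of all genes 6.87% were higher and 13.8% lower. After median centring 11 of the 27 were higher and 3 lower, against 15.3% and 8.53% of all genes. PRLR, the prolactin receptor, had values of 12.59 to 13.34 (median 13.09) at 48 h, against 11.19 to 11.80 (median 11.38) at -22 h. No value overlapped, and the change was 1.61 (SE 0.08, adjusted p = 0.00012), whereas at 9 h it was -2.44. SOCS2, an inhibitor of growth hormone signalling, had 10.17 to 11.93 (median 11.65) at 48 h, against 9.30 to 11.08 (median 10.01) at -22 h, with a change of 1.37 (SE 0.24, adjusted p = 0.00829) after -0.84 at 9 h. STAT5B, a transcription factor of the same pathway, changed by 1.08 (SE 0.17, adjusted p = 0.00476) and had not returned. IGFBP1, a binding protein of insulin-like growth factors, changed by 1.89 (SE 0.44, adjusted p = 0.0241), with values of 9.11 to 10.55 at 48 h, against 5.71 to 9.32 at -22 h, and was not called without cow 1, 4, 6 or 8. TAT, tyrosine aminotransferase and a known target of glucocorticoids, changed by 1.02 (SE 0.13, adjusted p = 0.00254) after -3.49 at 9 h. SERPINA6, the carrier of cortisol in plasma, was not called (0.71, SE 0.22, adjusted p = 0.0647), but was after median centring.

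Amino acid and one-carbon metabolism contained changes in both directions. Of 38 genes of the urea cycle and amino acid catabolism 6 were higher and 7 lower, against 6.87% and 13.8% of all genes. Without cow 1 or cow 6 only 3 were lower, without cow 3, 4 or 8 only 4, and without cow 2, 9 were higher and 6 lower. After median centring 12 of the 38 were higher and 2 lower, against 15.3% and 8.53% of all genes. SDS, which degrades serine, had 6.66 to 8.98 (median 7.15) at 48 h, against 3.37 to 6.22 (median 5.80) at -22 h, with a change of 1.98 (SE 0.42, adjusted p = 0.0168) after 7.29 at 9 h. OAT, ornithine aminotransferase, overshot in the other direction, with a change of -1.07 (SE 0.11, adjusted p = 0.00106) after 2.93 at 9 h. Of 18 genes of methionine and one-carbon metabolism 3 were higher and 4 lower (3 and 2 after median centring), but only 1 to 3 were lower without single cows, 1 without cow 3 or cow 4 and 2 without cow 1, 2, 5, 6 or 8. GNMT, which uses S-adenosylmethionine to methylate glycine, had 5.48 to 7.15 (median 6.15) at 48 h, against 3.66 to 4.46 (median 3.81) at -22 h, without overlap, and a change of 2.29 (SE 0.19, adjusted p = 0.000454). BHMT, which remethylates homocysteine, changed by 1.10 (SE 0.13, adjusted p = 0.00181) after -4.12 at 9 h, and SARDH, which degrades sarcosine, by -0.95 (SE 0.18, adjusted p = 0.0113) after -2.19 at 9 h. ACADSB, an acyl-CoA dehydrogenase of branched-chain amino acid breakdown, changed by 1.91 (SE 0.20, adjusted p = 0.00128) after -0.67 at 9 h.

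Some genes of lipid synthesis remained low. Of 25 genes of lipogenesis and triglyceride synthesis 7 were lower and 3 higher, with the same numbers after median centring, and the median change was -0.38. Among all genes 13.8% were lower and 6.87% higher, and 23.2% and 10.6% of those whose probe sets passed the filter on dim signal. Of the 7, 6 had not returned. Without cow 4, cow 7 or cow 8 only 3 were lower, as many as were higher. SCD, the desaturase that forms oleic acid, had values of 8.47 to 12.27 (median 11.27) at 48 h, against 12.27 to 13.06 (median 12.56) at -22 h. It was lower in all 8 cows, with a change of -1.57 (SE 0.38, adjusted p = 0.0265). FADS2, another desaturase, had 9.51 to 13.38 (median 12.88) at 48 h, against 13.53 to 14.44 (median 14.08) at -22 h, and a change of -1.46 (SE 0.38, adjusted p = 0.0365). FASN, fatty acid synthase, changed by -1.26 (SE 0.30, adjusted p = 0.0243). In SCD, FADS2 and FASN the lowest 48 h value was that of cow 2, and the call of each was lost without cow 1, 4, 7 or 8 (for FADS2 also without cow 3 or 6), with adjusted p up to 0.065, 0.079 and 0.063. Outside the list, MID1IP1, an activator of acetyl-CoA carboxylase, had 10.03 to 11.56 (median 10.46) at 48 h, against 11.63 to 12.67 (median 12.03) at -22 h, without overlap, and a change of -1.54 (SE 0.24, adjusted p = 0.00522). PLIN2, a coat protein of lipid droplets, overshot, with 4.93 to 5.71 (median 5.14) at 48 h, against 6.20 to 7.41 (median 6.69) at -22 h. Its change was -1.49 (SE 0.16, adjusted p = 0.00142), after 3.19 at 9 h. MTTP, which loads lipid onto apolipoprotein B, changed by 0.49 (SE 0.08, adjusted p = 0.00551) after -3.62 at 9 h.

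Cholesterol synthesis and fatty acid oxidation followed with smaller changes. Of 18 genes of cholesterol synthesis and uptake 4 were lower and 0 higher, before and after median centring. Without centring, 13.8% of all genes were lower and 6.87% higher, and 23.2% and 10.6% of those past the filter on dim signal. INSIG1, which retains the regulators of sterol synthesis in the endoplasmic reticulum, had 11.69 to 13.06 (median 12.02) at 48 h, against 12.86 to 13.80 (median 13.32) at -22 h, and a change of -1.12 (SE 0.15, adjusted p = 0.0028) after 0.67 at 9 h. MVD and HMGCS1, enzymes of the mevalonate pathway, changed by -0.91 and -0.55 and had not returned. Of 27 genes of fatty acid oxidation and ketogenesis 9 were lower and 3 higher. Without cow 6, 5 were lower and 1 higher, and without cow 3, 4, 5 or 8, 1 was higher. After median centring 5 of the 27 were lower and 7 higher, against 8.53% and 15.3% of all genes. CD36, a transporter of long-chain fatty acids, changed by -0.88 (SE 0.08, adjusted p = 0.000874) after -3.31 at 9 h, and ACADS, short-chain acyl-CoA dehydrogenase, by -0.78 (SE 0.15, adjusted p = 0.0123). Bile acid genes had been lower in 15 of 16 cases at 9 h, against 28.2% of all genes. At 48 h, 1 was lower (2 without cow 1), CYP27A1 with -0.49, and 3 were higher, led by the racemase AMACR with 0.74 after -4.87 at 9 h. Of 28 cytochrome P450 and other drug oxidation genes 27 were lower at 9 h, again against 28.2% of all genes. At 48 h 4 were lower, near the 13.8% of all genes, and 3 were higher. VNN1, a pantetheinase, was among the largest falls that had not returned, with 8.43 to 10.89 (median 10.50) at 48 h, against 11.55 to 12.72 (median 12.16) at -22 h and a change of -1.98 (SE 0.28, adjusted p = 0.00331).

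**Figure D5:**
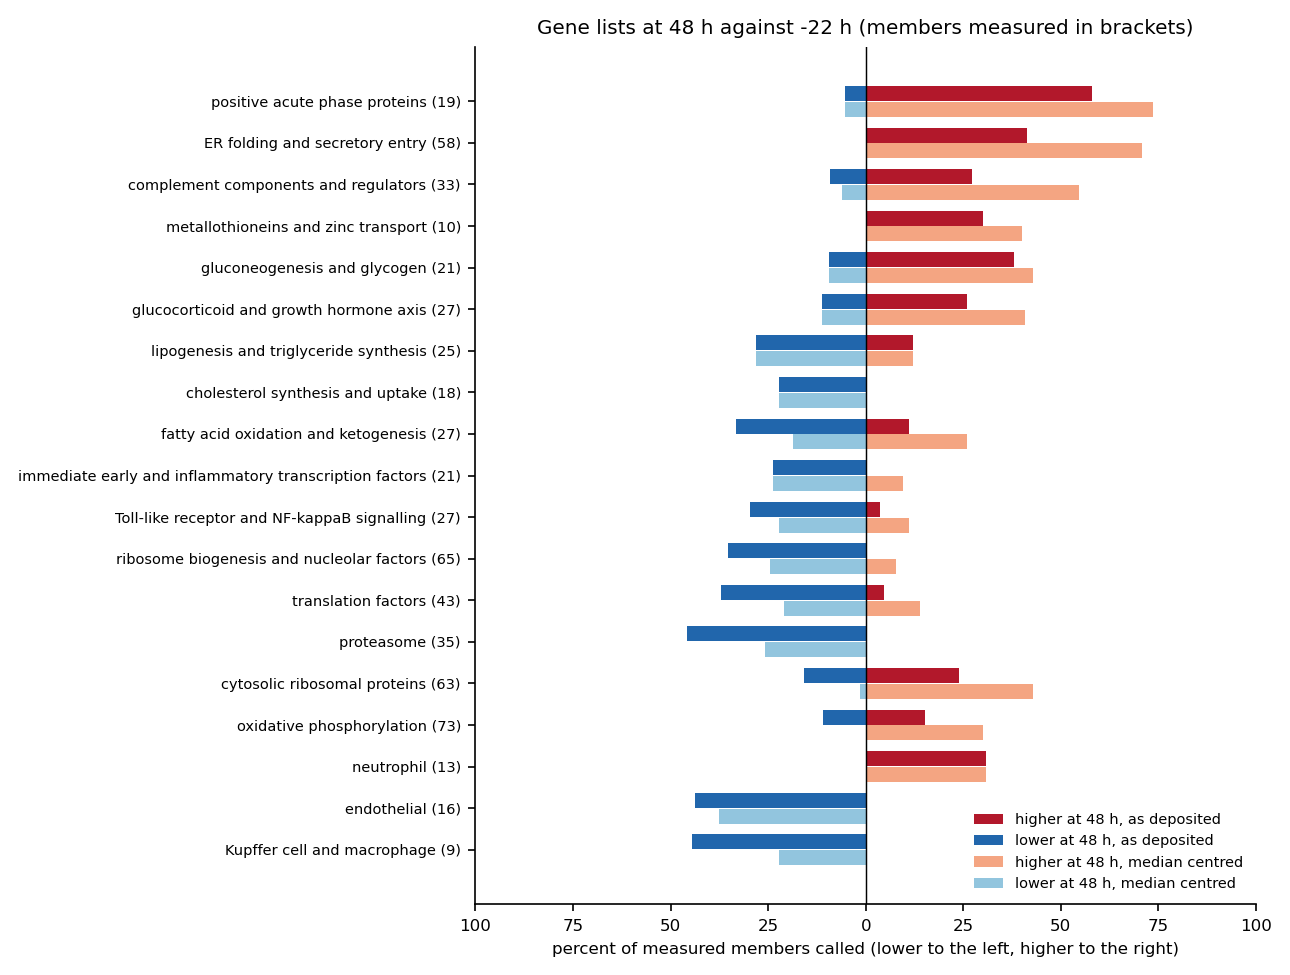
Percent of the measured members of 19 gene lists that were called higher (red, to the right) or lower (blue, to the left) at 48 h against -22 h, as deposited (dark) and after median centring (pale). Among the lists plotted, those with 0 lower members before and after centring are folding and secretion, metallothioneins and neutrophil markers, and the proteasome, cholesterol, endothelial and Kupffer cell lists have 0 higher members in both. Of all genes 6.87% were higher and 13.8% lower as deposited, and 15.3% and 8.53% after median centring.

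A few transcription factors of the early response lay below their level before treatment. Of 21 immediate early and inflammatory transcription factors 5 were lower and 0 higher (5 and 2 after median centring), 16 were not called, and all 5 had been higher at 9 h. Of all genes 13.8% were lower, and 23.2% of those past the filter on dim signal, while 8 of the 21 stayed below 5 on all 16 arrays. ATF3 had values of 3.08 to 5.92 (median 4.49) at 48 h, against 6.76 to 7.78 (median 7.14) at -22 h. The groups did not overlap, and the change was -2.50 (SE 0.36, adjusted p = 0.00389), after 2.79 at 9 h. MYC had 2.68 to 4.64 (median 3.67) at 48 h, against 4.42 to 6.03 (median 5.34) at -22 h, with a change of -1.65 (SE 0.18, adjusted p = 0.00136), after 4.79 at 9 h. EGR1 had 2.08 to 3.39 (median 2.83) at 48 h, against 2.80 to 6.41 (median 4.55) at -22 h, and a change of -1.77 (SE 0.35, adjusted p = 0.0121). IER2 had 6.18 to 7.69 (median 6.99) at 48 h, against 7.02 to 8.18 (median 7.62) at -22 h, and its change of -0.69 was not called without cow 2, 3, 4, 5, 6 or 7 (adjusted p up to 0.091).

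Some genes of the pathways that respond to bacterial products were lower. Lower calls made up 13.8% of all genes and 23.2% of those past the filter on dim signal. Among 27 members of the Toll-like receptor and NF-kappaB pathways 8 were lower and 1 higher (6 and 3 after median centring), 18 were not called, and 6 had overshot. The member that was higher was LBP, described above. MYD88, the adaptor of most Toll-like receptors, had 6.36 to 7.20 (median 6.72) at 48 h, against 6.97 to 7.68 (median 7.23) at -22 h, and a change of -0.61 (SE 0.10, adjusted p = 0.00624) after 2.10 at 9 h. TLR2, a receptor of bacterial lipopeptides, changed by -0.81 (SE 0.19, adjusted p = 0.0247) after 3.01 at 9 h, was higher in 1 of 8 cows, and was not called without cow 3, 4, 5, 6, 7 or 8 (adjusted p up to 0.065). For NFKBIA, the inhibitor of NF-kappaB, and RELA, a subunit of it, the changes of -0.32 (SE 0.13) and -0.26 (SE 0.09) did not pass the test. SOCS3, an inhibitor of interleukin-6 signalling, and STAT3, the transcription factor of that pathway, changed by 0.96 (SE 0.48) and 0.32 (SE 0.27), without a call. SOCS3 had been 5.35 above -22 h at 9 h, and cow 1 already had 6.12 at -22 h, against a median of 2.54.

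Among the lists, ribosome biogenesis, the proteasome and translation factors gave the largest groups of lower genes. Of all genes 13.8% were lower, and 23.2% of those whose probe sets passed a filter on dim signal. Of 65 ribosome biogenesis and nucleolar genes 62 were higher at 9 h, against 33.3% of all genes. At 48 h 23 were lower and 0 higher, and 21 of the 23 had overshot, with a median change of -0.28. After median centring 16 were lower and 5 higher, and without cow 3, 4, 6 or 8, 15 were lower. DDX27, an RNA helicase of ribosomal RNA processing, changed by -0.71 (SE 0.14, adjusted p = 0.0121) after 2.58 at 9 h. NOC2L, a nucleolar protein, had 6.37 to 7.30 (median 6.88) at 48 h, against 7.35 to 8.01 (median 7.57) at -22 h, and a change of -0.67 (SE 0.15, adjusted p = 0.0201, not called without cow 4 or 8) after 2.55 at 9 h. WDR43, a component of the small subunit processome, changed by -0.68 (SE 0.11, adjusted p = 0.00695) after 1.90 at 9 h, and GAR1, a protein of box H/ACA ribonucleoproteins, by -0.67 (SE 0.14, adjusted p = 0.0139) after 2.06 at 9 h. Outside the list, ODC1, the rate-limiting enzyme of polyamine synthesis and a known target of MYC, changed by -1.28 (SE 0.23, adjusted p = 0.00817), after 2.10 at 9 h.

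Of 35 proteasome genes 16 were lower and 0 higher (9 and 0 after median centring), 45.7% of those measured. Among all genes 13.8% were lower, and 23.2% after the filter on dim signal. Without single cows 11 to 17 of the proteasome genes were lower. PSMD1, a subunit of the regulatory particle, was called at 48 h only, with 8.39 to 9.26 (median 9.07) at 48 h, against 9.77 to 10.48 (median 10.07) at -22 h and a change of -1.09 (SE 0.14, adjusted p = 0.00227). PSMA7, of the catalytic core, had 12.95 to 13.26 (median 13.13) at 48 h, against 13.56 to 13.95 (median 13.75) at -22 h. Both genes had groups without overlap, and PSMA7 changed by -0.61 (SE 0.06, adjusted p = 0.000844). Of 43 translation factors 16 were lower and 2 higher (9 and 6 after median centring), with 12 to 15 lower without single cows. EIF2B3, a subunit of the exchange factor of initiation factor 2, changed by -0.80 (SE 0.08, adjusted p = 0.000942). Cytosolic ribosomal proteins went both ways, with 15 of 63 higher and 10 lower. Without cow 2, 3 or 4, 6 were lower, and without cow 6 or cow 8, 5 were lower. After median centring 27 of the 63 were higher and 1 lower, against 15.3% and 8.53% of all genes. RPSA, a protein of the small subunit, changed by 0.75 (SE 0.05, adjusted p = 0.000297) and was higher in all 8 cows. For oxidative phosphorylation the split also depended on centring, with 11 of 73 higher and 8 lower, 22 and 0 after median centring, 11 and 13 without cow 7, and 2 lower without cow 4.

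Several of the strongest changes had no counterpart at 9 h. NNAT, neuronatin, a small membrane protein, had values of 7.10 to 9.60 (median 8.79) at 48 h, against 3.25 to 5.08 (median 3.62) at -22 h. The groups lay more than 2 log2 units apart, and the change was 4.71 (SE 0.26, adjusted p = 0.00016), with 4.50 on the other probe set and -0.50 at 9 h. HTR2B, a serotonin receptor, changed by 3.05 (SE 0.54, adjusted p = 0.00825) from values that were at most 4.15 at -22 h, while its other probe set stayed dim with 0.04. KIF23, a kinesin of cytokinesis, had 7.66 to 9.65 (median 8.96) at 48 h, against 5.68 to 7.79 (median 6.47) at -22 h, and a change of 2.03 (SE 0.12, adjusted p = 0.00017). It was higher in all 8 cows, and of 64 cell cycle genes 2 were higher and 9 lower (9 and 5 after median centring), near the 13.8% of all genes that were lower. Without cow 2, 4, 6 or 7 only 5 were lower, and without cow 3 only 4. The other higher one, AURKA, a mitotic kinase, was dim, with 2.62 to 3.59 at 48 h and 2.20 to 2.60 at -22 h. By contrast with the changes that had no counterpart at 9 h, SPC24, a kinetochore protein, changed by 2.00 (SE 0.31, adjusted p = 0.00476) after -1.09 at 9 h.

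Falls at 48 h only were led by SLC13A3, a dicarboxylate transporter, and ZBTB21, a zinc finger protein. SLC13A3 had 4.37 to 6.70 (median 6.16) at 48 h, against 7.00 to 8.42 (median 7.97) at -22 h, with a change of -1.95 (SE 0.17, adjusted p = 0.000593). ZBTB21 had 4.08 to 5.64 (median 5.16) at 48 h, against 6.31 to 7.24 (median 6.99) at -22 h, with a change of -1.81 (SE 0.19, adjusted p = 0.0012). In neither gene did the groups overlap. Among falls that had not returned, BREH1 changed by -2.04 (SE 0.17, adjusted p = 0.000478), CITED4, a transcriptional co-regulator, by -1.85 (SE 0.14, adjusted p = 0.000383), and RHBG, an ammonium transporter, by -1.70 (SE 0.24, adjusted p = 0.00364). In each of these 3 genes the groups were apart. SLC11A2, an importer of iron, overshot with a change of -1.71 (SE 0.23, adjusted p = 0.00307) after 2.69 at 9 h, and TFRC, the transferrin receptor, was higher by 0.86 (SE 0.21, adjusted p = 0.0276), but not called without cow 4, 7 or 8.

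Some markers of sinusoidal cells were lower. Of 16 endothelial markers 7 were lower and 0 higher, against 13.8% of all genes lower (6 and 0 after median centring), with a median change of -0.58, and 6 of the 7 had not returned. Their mean ran between 5.47 and 6.13 at 48 h and between 5.75 and 6.61 at -22 h, and was lower in all 8 cows. CLEC4G, a lectin of sinusoidal endothelial cells, had 8.82 to 9.73 (median 9.12) at 48 h, against 9.75 to 10.91 (median 10.53) at -22 h. The groups did not overlap, and the change was -1.20 (SE 0.09, adjusted p = 0.00042), with -1.55 at 9 h. CLDN5, a tight junction protein, changed by -1.04 (SE 0.15, adjusted p = 0.00402), EMCN, a sialomucin, by -0.83 (SE 0.07, adjusted p = 0.000454), and TEK, the receptor of angiopoietins, by -0.76 (SE 0.08, adjusted p = 0.00106). Of 9 Kupffer cell and macrophage markers 4 were lower (2 after median centring, 2 without cow 3, 4 or 5, 1 without cow 6 or cow 8), among them TIMD4 with -0.85 and MSR1 with -0.69, of which TIMD4 was not called without cow 6 and MSR1 not without cow 8. Of 18 T and NK cell markers 4 were lower (3 after median centring, 2 without cow 3), led by CCL5, a chemokine of T cells, with a change of -0.94 (SE 0.18, adjusted p = 0.0121) from dim values.

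Hepatocyte markers were high on every array, with means of 13.98 to 14.24 over 10 genes at 48 h and of 13.78 to 14.09 at -22 h. Of these 10 genes 1 was higher, FGB, and 1 lower, TTR, the carrier of thyroid hormone and retinol, with -0.21, which was not called after median centring or without cow 1, 2, 4, 5, 6 or 8. ALB, serum albumin, had 15.99 to 16.10 at 48 h, against 15.87 to 16.22 at -22 h, and a change of -0.07 (SE 0.04, adjusted p = 0.241). Another probe set of ALB, with a mean of 9.58, gave -0.60 (adjusted p = 0.00788). A further one, with a mean of 6.71, gave 1.54 (adjusted p = 0.0200), and the rest were not called. The mean of 13 skeletal muscle markers spread between 4.57 and 8.35 at 48 h and between 4.51 and 6.41 at -22 h, with the highest value on the 48 h array of cow 6, and was higher at 48 h in 4 of 8 cows. The part of these cell types in the other results was not tested.

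The 48 h change was also set between the 4 cows with 6 biopsies and the 4 cows with 3. No probe set differed at an adjusted p below 0.05 in limma, and 544 (2.25%) at an unadjusted p below 0.05, with 334 to 790 over the alternatives run. Groups of 4 limit this comparison to large differences.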

How the data were processed

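Total RNA from liver biopsies was hybridized to the Affymetrix Bovine Genome Array, 1 sample per array. The authors summarised the probe signals by GCRMA, and the deposited values are on a log2 scale, 1 per probe set and array. They were used as deposited. The precision is limited by 8 cows at each time, and the files hold no read depth. Samples were grouped by the hour in their labels and paired by animal. Deviations from the group means correlated at 0.340 on average between the 48 h and -22 h arrays of 1 cow (lowest 0.0925) and at -0.047 between arrays of different cows, and 7 of 8 cows matched their own array best. The means include the same 8 cows, so the value between cows follows in part from that within cows. With the cow as a random term in limma, the consensus correlation within cows was -0.055.

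The 16 arrays were fitted in limma 3.58.1 (R 4.3.3) with terms for hour and cow, and p-values were adjusted over all probe sets by the Benjamini-Hochberg method. An adjusted p below 0.05 was a call. The 9 h and 48 h contrasts were fitted in the same way. Confidence intervals and standard errors come from this fit. Probe sets were named from the platform annotation with symbols updated through RefSeq, and each of 9155 genes was read through its brightest probe set of that gene alone. Median centring subtracted from each array the median of probe sets with a mean of at least 5. Of 1840 symbols written into 42 process and 12 cell type lists, 1418 were found. Members and lists were chosen with earlier results of these data known. The genes in the text came from 267 chosen by a rule: the 15 largest rises and 15 largest falls with the same direction in all cows, the 10 largest among genes not returned and among genes overshot, up to 4 called members and the brightest member of each list, and genes named in the study. Exceptions are stated. Alternatives were the block, the arrays in the fit, centring, filters, array weights, stricter thresholds and leaving out each cow. Centring together with leaving out a cow was added after seeing the data. The fits were tested on simulated data. Tables and figures were made with Python 3.11.15, pandas 2.3.3 and matplotlib 3.10.9.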

Additional observations from a re-analysis of the deposited data

Results flagged for a closer look

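In 237 groups of 8 arrays or cows, 34 had a highest or lowest value whose gap to the nearest other one, as a share of the range, exceeded Dixon's 95% critical value. Chance gives about 1 in 20 such groups. They clustered in a few arrays. The 48 h array of cow 2 was lowest in FADS2 (9.51), SCD (8.47), PSMD1 (8.39), SARDH (5.93), SLC13A3 (4.37), SOCS2 (10.17) and TTR (14.90), and highest in GAR1 (10.00), ODC1 (9.88) and STAT3 (11.94). The same array lay at 24.0% of the distance between the -22 h and 9 h means.

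The -22 h array of cow 1, at 10.6% of that distance, was highest in ACADS (10.99), GPX3 (9.36), SOCS3 (6.12), STAT5B (6.65) and STT3B (7.50), and lowest in AURKA (2.20) and COLEC11 (9.34). The -22 h array of cow 7 was highest in the spike-in mean (13.39) and S100A9 (4.63). It was lowest in its median over all probe sets (4.15) and over the brighter ones (7.76), in the number of probe sets of at least 5 (10621), and in ALB (15.87), F5 (12.87) and WDR43 (7.53). Cow 7 also had the highest median change of brighter probe sets, 0.112.

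Other arrays stood apart in single genes. At 48 h cow 4 was lowest in CXCR1 (2.34) and cow 5 in RPSA (13.23). At -22 h cow 3 was highest in GNMT (4.46), HTR2B (4.15) and LOC515676 (11.63), and cow 2 in SPC24 (8.64).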

How the results depend on the processing

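The count of 3856 changed probe sets (1890 genes) at 48 h moved most with the arrays in the fit and with the threshold. All 36 arrays gave 7270 probe sets (2855 genes) with no replicate block and 8237 (3324 genes) with it. The 16 arrays with no replicate block gave 3872, and the block with the cow as a random term 3398. The 4 cows with 3 biopsies gave 229 probe sets (95 genes), the 4 with 6 biopsies 48 (17 genes), a Bonferroni-adjusted p below 0.01 left 33 (16 genes), and a change of at least 2-fold 484 (196 genes). Leaving out cows, with and without median centring, gave 2693 (without cow 6) to 14429 probe sets (centred, without cow 7), and 1318 (without cow 4) to 4597 genes (centred, without cow 7). Between 48 h and 9 h, 10977 probe sets were changed, 16705 after median centring, and 10419 (without cow 4) to 19428 (centred, without cow 8) without single cows.

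Genes not returned numbered 843, against 6 by Bonferroni, 92 of at least 2-fold, 1820 when any of 3 to 12 h was taken in all 36 arrays, and 564 (without cow 4) to 1380 (centred, without cow 7) without single cows. Genes overshot numbered 664, against 1 by Bonferroni, 39 of at least 2-fold and 447 to 900 without single cows. The median change was -0.09 over the brighter probe sets and 0.033 over all probe sets.

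Of 113 genes named, 102 were called. Of these 88 kept the call whichever single cow was left out, and 101 after median centring. In the 4 cows with 3 biopsies 87 of the 102 calls were lost, and in the 4 with 6 biopsies 93. A Bonferroni-adjusted p below 0.01 removed 94 of them and a limit of 2-fold 41. Many of these genes were chosen for the size or the call of their change in these same data. No named gene changed sign with a call under the alternatives run on its chosen probe set. Averages over the probe sets of a gene were not checked for sign. With no replicate block 8 calls were lost. Signal near background limits dim genes, and biopsies 22 h before infusion are the only baseline.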
